A study of Mus musculus with 21 samples.

Results

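The genes described are 36 genes of the primary cilium: subunits and assembly factors of the BBSome, intraflagellar transport (IFT) proteins, small GTPases, tubby family adaptors, kinesins and transition zone proteins, among them genes tied to inherited obesity. They were taken by symbol from a list of names that was drawn up with earlier results of these data known. All 36 symbols were found among the 35266 genes of the count table and in the TPM table, and all 36 were among the 16513 genes that passed the filter on low counts. The libraries hold RNA of fluorescent neurons picked by hand from the arcuate nucleus of male mice on a C57BL/6J background, 1 mouse to a library. AGRP neurons came from NPY-hrGFP mice, in which an Npy reporter marks the cells, and POMC neurons from Pomc-GFP mice, so cell type and reporter strain cannot be told apart. The 5 AGRP fed and 5 POMC fed mice had food ad libitum. The 6 AGRP FD (food-deprived) and 5 POMC FD mice had only water for 24 hours. Mice were 46 to 56 days old, and every animal was moved to a fresh cage before the experiment.

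The primary cilium is a single, non-motile, microtubule-based projection that most neurons carry, and it concentrates particular G-protein coupled receptors and signalling enzymes in its membrane. Intraflagellar transport builds it: IFT-B particles, moved by kinesin-II, carry cargo to the tip, and IFT-A particles take part in the return and in bringing receptors in. The BBSome is a coat-like complex that moves membrane proteins out of the cilium, and the transition zone is the gate at its base. Loss of BBSome genes (Bardet-Biedl syndrome), of Alms1 (Alström syndrome) or of Tub (the tubby mouse) leads to obesity, and loss of cilia from POMC neurons makes mice eat more.

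Gene counts were 9822298 to 37663979 per library (median 19189780), from 44 to 214 sorted cells. In every AGRP library Agrp and Npy were at 2052.5 TPM (reads per base of exon, scaled to the same total in each library) or more, and in POMC libraries they were at 157 TPM or less, while Pomc and Cartpt were at 1647 TPM or more in every POMC library and at 179.7 TPM or less in AGRP libraries. Of 31 listed markers of glia, endothelium, ependyma and tanycytes, 17 passed the filter. Because the libraries are bulk RNA of sorted cells, a lower value can come from fewer cells with a transcript or from less RNA per cell, which cannot be told apart. The lowest count of a cilium gene was 0, for Ift27 in 1 AGRP FD library, and no other cilium gene had a count at or under 3, the floor used for counting error, in any library.

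Transcripts of all 36 genes were present in both neuron types. The mean level of all 36 genes was over 1 TPM in every group, and it was over 10 TPM for 35 genes in AGRP fed, 32 in AGRP FD, 33 in POMC fed and 33 in POMC FD neurons. The median level of the 36 genes was 43.6 TPM in AGRP fed, 33.0 in AGRP FD, 36.8 in POMC fed and 38.5 in POMC FD neurons, where the medians of all genes tested were 17.9, 14.6, 16.1 and 17.3 TPM. The median cilium gene thus lay at the 67.0 to 70.2 percentile of the genes tested in the 4 groups.

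**Figure D1:**
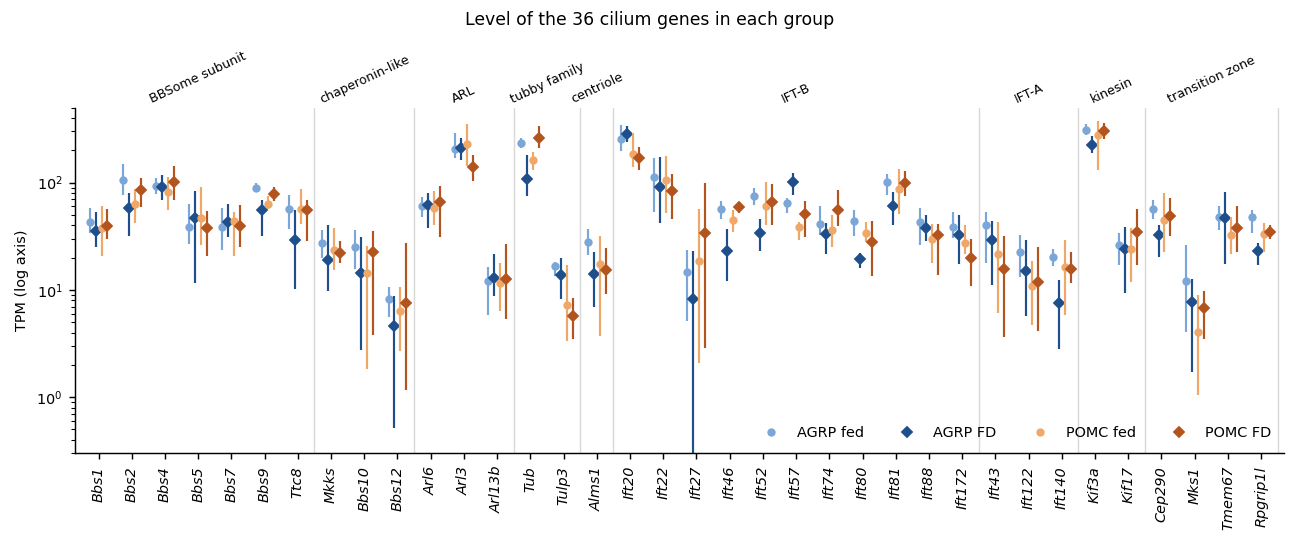
Level of each cilium gene in TPM on a log axis, ordered by complex, with the mean of each group as a point and the lowest to highest library as a line (5 AGRP fed, 6 AGRP FD, 5 POMC fed and 5 POMC FD libraries). Kif3a, Ift20, Arl3 and Tub are the most abundant genes, with means of 187.9 to 276 TPM over the 21 libraries, and Bbs12 and Mks1 the least, at 6.55 and 7.67 TPM; the AGRP FD line of Ift27 runs off the axis because 1 library is at 0.

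Kif3a, the motor subunit of kinesin-II, had the highest mean over the 21 libraries, with 307 ± 27.9 TPM (SD, n = 5) in AGRP fed and 280.2 ± 106 TPM (SD, n = 5) in POMC fed neurons. Ift20, an IFT-B protein that also sits at the Golgi, was at 256 ± 56.7 TPM in AGRP fed and 186 ± 63.0 TPM in POMC fed neurons. Arl3, a GTPase that releases lipid-anchored cargo inside the cilium, was at 206 ± 49.5 and 230.1 ± 75.3 TPM in the same groups. In POMC fed neurons these 3 means lay within 1 SD of Kif3a of one another, and their order was not tested. At the other end, Bbs12, one of the chaperonin-like proteins that assemble the BBSome, was at 8.17 ± 1.88 TPM in AGRP fed neurons and Mks1, a transition zone protein, at 4.09 ± 3.07 TPM in POMC fed neurons.

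Levels differed within and between complexes. The 7 BBSome subunits lay at 38.3 (Bbs7) to 106 TPM (Bbs2) in AGRP fed and 37.4 (Bbs1) to 81.3 TPM (Bbs4) in POMC fed neurons, whereas their 3 chaperonin-like assembly factors Mkks, Bbs10 and Bbs12 lay at 8.17 to 27.6 and 6.31 to 23.6 TPM. The 11 IFT-B genes ran from 14.8 (Ift27, a small GTPase of the complex) to 256 TPM (Ift20) in AGRP fed neurons, and the 3 IFT-A genes Ift43, Ift122 and Ift140 from 20.4 to 39.9 TPM. The tubby family genes lay far apart, with Tub at 234 ± 17.6 TPM and Tulp3 at 16.7 ± 1.79 TPM in AGRP fed neurons. The remaining classes were Arl6 and Arl13b at 61.0 and 12.0 TPM, Kif17 at 26.1 TPM, the centriolar Alms1 at 28.2 TPM, and the transition zone genes Cep290, Tmem67 and Rpgrip1l at 57.2, 48.3 and 47.5 TPM.

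Libraries of 1 group differed for some of these genes more than for others. The SD of log2 normalized CPM (counts scaled to the library size by TMM, plus 1) within groups was 0.463 at the median of the 36 genes, beside 0.602 for all genes tested. It was lowest for Bbs9 (0.195), Tub (0.242), Rpgrip1l (0.279) and Ift20 (0.288), and highest for Ift27 (1.23), Bbs10 (1.01) and Bbs12 (0.915), all 3 of which have a mean of 15.8 normalized CPM or less.

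In AGRP neurons, the transcripts of Tub, of 3 IFT-B genes (Ift46, Ift52 and Ift80), of the IFT-A gene Ift140 and of the transition zone gene Rpgrip1l fell with food deprivation, by 1.71-fold to 2.26-fold, and that of the IFT-B gene Ift57 rose by 1.89-fold, a direction that turned under spike-in scaling. These 7 of 36 genes (19.4%) had an adjusted p under 0.05 in edgeR's quasi-likelihood test over all genes, beside 10.3% of all genes tested. In the lower direction they were 6 of 36 (16.7%), beside 4.43% of all genes, and in the higher direction 1 of 36 (2.78%), beside 5.87%. The median log2 fold change of the 36 genes was -0.22, and that of all genes tested -0.02, and 25 of the 36 genes (69.4%) had a fitted change below 0, beside 51.4% of all genes. No BBSome subunit, chaperonin-like gene, ARL GTPase or kinesin passed this test. With limma-voom, the study's own test, and with DESeq2, 9 of the 36 genes were called, beside 12.8% and 13.2% of all genes. These were the same 7 genes with the BBSome subunits Bbs2 and Ttc8 added by limma-voom, and Bbs2 and Bbs9 by DESeq2. Values of 6 of the 36 genes (16.7%) did not overlap between AGRP FD and AGRP fed libraries, which was so for 7.65% of all genes tested.

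Tub (ENSMUSG00000031028, chr7:109010825-109034460, plus strand, mm10) encodes tubby, an adaptor that links membrane phosphoinositides and IFT-A to the entry of receptors into the cilium. Its normalized CPM was 451, 451, 418, 423 and 386 in the 5 AGRP fed libraries and 176 to 342 (median 212) in the 6 AGRP FD libraries. Every AGRP FD library was below every AGRP fed library. The transcript was 1.85-fold lower in AGRP FD neurons (log2 fold change -0.89 ± 0.16 (SE), edgeR adjusted p = 0.000245). Of the exonic bases of Tub, 14.4% overlap genes on the opposite strand, Ric3 and Gm26599, and the counting did not use strand. Ric3 was at 71.7 to 117 TPM in AGRP fed and 90.7 to 181 TPM in AGRP FD libraries, and Gm26599 at 1.92 to 17.7 and 2.92 to 29.1 TPM, and the median of neither gene was lower in AGRP FD libraries.

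Ift46, Ift52 and Ift80 encode IFT-B proteins. IFT46 and IFT52 belong to the core of the complex and IFT80 to its peripheral part. Ift46 (ENSMUSG00000002031, chr9:44772935-44792714, plus strand) was at 57.2, 67.2, 44.1, 66.1 and 48.9 normalized CPM in AGRP fed libraries and at 16.4 to 47.2 (median 21.3) in AGRP FD libraries. Of the AGRP FD libraries, 1 library lay inside the range of the fed ones and the other 5 below it. The level was 2.10-fold lower (log2 fold change -1.07 ± 0.27 (SE), edgeR adjusted p = 0.00800).

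Ift52 (ENSMUSG00000017858, chr2:163017354-163046141, plus strand) was at 43.5, 50.0, 50.3, 56.6 and 39.9 normalized CPM in AGRP fed libraries and at 19.0 to 34.5 (median 24.4) in AGRP FD libraries, 1.86-fold lower (log2 fold change -0.90 ± 0.27 (SE), edgeR adjusted p = 0.0273). Ift80 (ENSMUSG00000027778, chr3:68892499-69004570, minus strand) was at 61.3, 63.6, 54.8, 36.8 and 40.6 normalized CPM in AGRP fed and at 22.0 to 30.7 (median 27.2) in AGRP FD libraries, 1.91-fold lower (log2 fold change -0.93 ± 0.27 (SE), edgeR adjusted p = 0.0250). For both genes the groups did not overlap, and the AGRP FD values of Ift80 lay closer together than the fed values did. The call of Ift52 was lost without AGRP fed replicate 2, 3 or 4 or without AGRP FD replicate 2, 3 or 6 (edgeR adjusted p up to 0.0754), and that of Ift80 without AGRP fed replicate 1, 2 or 3 or without AGRP FD replicate 5 (edgeR adjusted p up to 0.0729), and with the number of sorted cells in the fit (edgeR adjusted p = 0.0520).

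Ift140 (ENSMUSG00000024169, chr17:25016391-25099487, plus strand) encodes a core subunit of IFT-A, the complex that TUB and TULP3 bind. It was at 31.0, 27.9, 36.7, 29.2 and 34.9 normalized CPM in AGRP fed libraries and at 4.92 to 24.7 (median 13.4) in AGRP FD libraries, with no overlap. The level was 2.26-fold lower (log2 fold change -1.18 ± 0.38 (SE), edgeR adjusted p = 0.0434), and this call was lost without AGRP fed replicate 1, 2, 3, 4 or 5 or without AGRP FD replicate 2, 3, 5 or 6 (edgeR adjusted p up to 0.0996). It was also lost with the spike-in set in the fit (edgeR adjusted p = 0.0553). The other IFT-A genes, Ift43 and Ift122, had log2 fold changes of -0.20 ± 0.60 and -0.38 ± 0.43 and did not pass the test.

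Rpgrip1l (ENSMUSG00000033282, chr8:91217030-91313262, minus strand) encodes a scaffold protein of the transition zone. Its normalized CPM was 106, 109, 92.7, 97.4 and 68.8 in AGRP fed and 40.4 to 75.4 (median 52.4) in AGRP FD libraries. The ranges overlapped through the lowest fed library. The level was 1.71-fold lower (log2 fold change -0.78 ± 0.20 (SE), edgeR adjusted p = 0.0100). Of the other transition zone genes, Cep290, mutated in several ciliopathies, had a log2 fold change of -0.58 ± 0.23 (edgeR adjusted p = 0.107), Tmem67 of 0.23 ± 0.33 and Mks1 of -0.43 ± 0.61.

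Ift57 (ENSMUSG00000032965, chr16:49699233-49765126, plus strand), a peripheral IFT-B gene whose protein links the particle to kinesin-II, went the other way. It was at 49.1, 47.3, 37.7, 52.1 and 54.3 normalized CPM in AGRP fed libraries and at 63.2 to 125 (median 92.2) in AGRP FD libraries. Every AGRP FD library was above every fed one. The level was 1.89-fold higher (log2 fold change 0.92 ± 0.24 (SE), edgeR adjusted p = 0.0114), although under scaling to spike-in RNA its log2 fold change was -0.28, where the median of all genes was -0.93. Gm15518, on the opposite strand over 7.86% of its exonic bases, was at 0.256 to 3.99 TPM in AGRP fed and 0.368 to 18.8 TPM in AGRP FD libraries, and its part in the rise of Ift57 was not tested. Within the IFT-B complex, then, Ift57 moved up while Ift46, Ift52 and Ift80 moved down, and the remaining 7 genes of the complex did not pass the test.

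**Figure D2:**
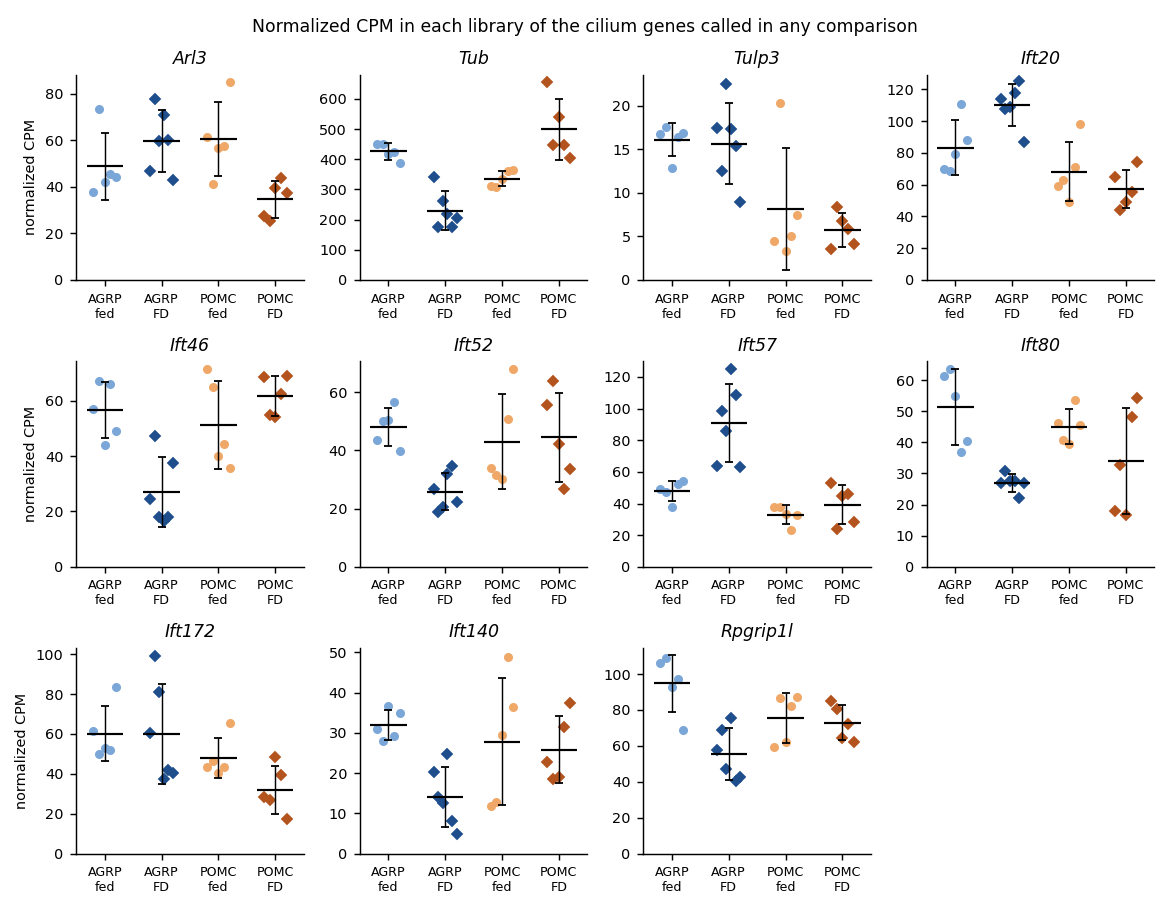
Normalized CPM (TMM-scaled, linear axes from 0) of the 11 cilium genes called in any comparison, 1 point a library, with the mean of each group as a bar and the SD as whiskers (5, 6, 5 and 5 libraries). The AGRP FD points of Tub, Ift52, Ift80 and Ift140 lie below all AGRP fed points and those of Ift57 above them, and for Tub the POMC FD points lie above all POMC fed points; under spike-in scaling the AGRP change of Ift57 turned to -0.28.

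Several genes that missed the threshold in AGRP neurons had fitted changes below 0 with an unadjusted p under 0.05, which 14 of the 36 genes reached in either direction beside 22.3% of all genes. The BBSome subunits Bbs2, Bbs9 and Ttc8 had log2 fold changes of -0.64 ± 0.23, -0.47 ± 0.17 and -0.80 ± 0.33 (edgeR adjusted p = 0.0794, 0.0858 and 0.138). Bbs9 had no overlap between groups, with 91.8 ± 4.52 (SD, n = 5) normalized CPM in AGRP fed and 66.4 ± 13.2 (SD, n = 6) in AGRP FD neurons. The other BBSome subunits Bbs1, Bbs4, Bbs5 and Bbs7 had changes of -0.05 to 0.53. Alms1, the Alström syndrome gene, had a log2 fold change of -0.77 ± 0.38 (edgeR adjusted p = 0.219), and the kinesins Kif3a and Kif17 had -0.20 ± 0.17 and 0.08 ± 0.34. Tulp3, the other tubby family gene, had -0.04 ± 0.43. The uncalled IFT-B genes Ift20, Ift22, Ift27, Ift74, Ift81, Ift88 and Ift172 ran from -0.53 (Ift27) to 0.40 (Ift20), with Ift81, a tubulin-binding subunit, at -0.50 ± 0.21 (edgeR adjusted p = 0.142). The chaperonin-like genes Mkks, Bbs10 and Bbs12 had -0.24 ± 0.36, -0.62 ± 0.54 and -0.63 ± 0.74, and Mkks shares 29.3% of its exonic bases with other annotated genes. The 3 ARL GTPases, which load and unload ciliary cargo, had 0.26 ± 0.26 (Arl6), 0.29 ± 0.24 (Arl3) and 0.40 ± 0.43 (Arl13b).

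Other values moved with food deprivation in AGRP neurons as well. Agrp and Npy together made up 1.21 to 2.37% of TPM in AGRP fed and 2.72 to 6.89% in AGRP FD libraries. The 9 listed ependymal markers found in the table, genes of cells with many motile cilia, summed to 47.1 to 110 TPM in AGRP fed and 9.81 to 64.3 TPM in AGRP FD libraries, and most of both sums came from Rsph1 (log2 fold change -0.72, edgeR adjusted p = 0.348). Among them Foxj1, the master regulator of motile cilia, was at 5.75 TPM or less in AGRP fed and 0.92 TPM or less in AGRP FD libraries. Ccdc153 and Rarres2 were at 0 in all 6 AGRP FD libraries. Tmem212 was at 0 in all 5 AGRP fed libraries and at 0 to 0.843 TPM in AGRP FD libraries. Hydin had a fitted change above 0, with medians of 0.564 TPM in AGRP fed and 0.86 TPM in AGRP FD libraries (log2 fold change 0.83, edgeR adjusted p = 0.583). Dnah5 was at 5.62 to 7.39 TPM in AGRP fed and 1.79 to 3.46 TPM in AGRP FD libraries (edgeR adjusted p = 0.0696). The part of these transcripts in the lower cilium genes was not tested. Of the 17 markers tested for cells other than neurons, 1 passed the test in this comparison, the astrocyte marker Aldh1l1, which was higher in AGRP FD neurons. It was at 0.045 TPM or less in AGRP fed and 0.217 to 5.15 TPM in AGRP FD libraries. The other listed astrocyte markers Gfap, Aqp4 and Gja1 had log2 fold changes of -0.50, -0.38 and -0.98 and did not pass. The 7 called genes kept the sign of their difference within the mice of P46-47 (3 FD, 2 fed) and within those of P51-56 (3 and 3). They also kept it within each set of spike-in volume. The set with a volume given by cell number was the P46-47 mice again, and the 1 µl set held 1 FD and 1 fed library. The genes were called on these same libraries, so the signs are not a separate test. Tub differed by -0.69 and -1.14 (log2) in the younger and older mice.

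All of these changes are relative to the TMM scaling, which takes most genes as unchanged. Scaling to the spike-in RNA moved the median of all genes to -0.93 in AGRP neurons and that of the 36 genes to -1.14. None of the 36 then passed the test, beside 0.400% of all genes. Spike-in counts did not follow the labelled volume alone. They were 8514459 in AGRP FD replicate 4 (10 µl) and 74488 in AGRP FD replicate 5 (1 µl). The count of 7 fell to 4 without AGRP fed replicate 2 and to 4 without AGRP fed replicate 3, beside 8.12% and 7.55% of all genes. It was 11 in tests on log2 TPM, beside 11.8% of all genes with a pseudocount of 1 and 11.7% with 0.1. On that scale the median of all genes was -0.28 with a pseudocount of 1 and -0.36 with 0.1.

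**Figure D3:**
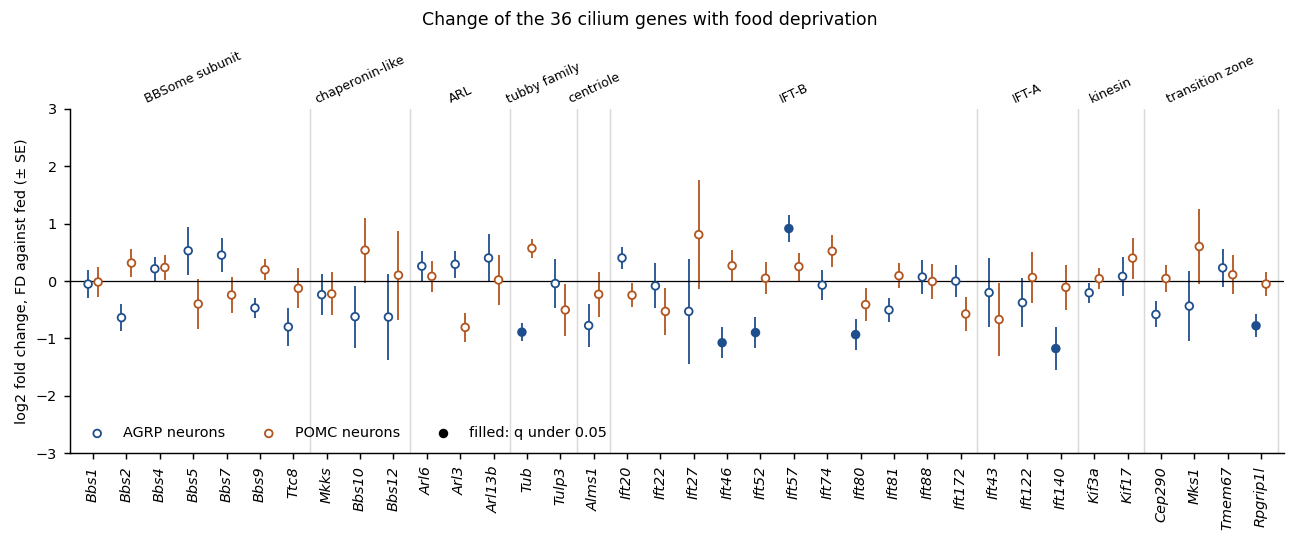
Log2 fold change (FD against fed, points, with the SE as bars) of the 36 cilium genes in AGRP and in POMC neurons, ordered by complex, with genes at an edgeR adjusted p under 0.05 filled. In AGRP neurons 6 genes are filled below 0 and Ift57 above 0, which under spike-in scaling turned to -0.28, and no gene is filled in POMC neurons.

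The promoters of these genes were read for the motif of RFX factors, which switch on many cilium genes in animals. The sequences are those of RefSeq for GRCm38.p6 (the assembly that mm10 names), from 250 bases before to 50 bases after the annotated start, and 32 of the 36 genes had an entry. Shown, 5′ to 3′ on the strand of the gene with matches in capitals, are Ift57, the gene that rose, and Tub and Ift46. The changes of Tub and Ift46 differed between the neuron types, as did that of Arl3, whose window is not shown. The windows shown lie at chr16:49699044-49699343, chr7:109010630-109010929 and chr9:44772759-44773058, all on the plus strand.
Ift57: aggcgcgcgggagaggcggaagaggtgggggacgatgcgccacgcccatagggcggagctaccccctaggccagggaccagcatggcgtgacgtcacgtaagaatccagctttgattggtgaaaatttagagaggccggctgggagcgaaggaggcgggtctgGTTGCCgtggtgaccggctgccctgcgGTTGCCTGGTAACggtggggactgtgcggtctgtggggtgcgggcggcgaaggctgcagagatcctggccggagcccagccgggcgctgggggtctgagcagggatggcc
Tub: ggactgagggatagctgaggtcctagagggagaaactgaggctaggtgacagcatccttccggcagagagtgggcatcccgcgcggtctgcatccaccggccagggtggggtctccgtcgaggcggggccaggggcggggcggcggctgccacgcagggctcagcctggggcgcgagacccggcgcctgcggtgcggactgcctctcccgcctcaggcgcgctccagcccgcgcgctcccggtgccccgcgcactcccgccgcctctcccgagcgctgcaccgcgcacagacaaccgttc
Ift46: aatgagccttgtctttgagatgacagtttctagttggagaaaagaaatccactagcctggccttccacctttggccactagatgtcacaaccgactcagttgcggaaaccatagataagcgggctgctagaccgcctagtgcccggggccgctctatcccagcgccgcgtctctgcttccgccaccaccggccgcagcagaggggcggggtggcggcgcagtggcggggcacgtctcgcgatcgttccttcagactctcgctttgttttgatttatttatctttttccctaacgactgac

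The capitals in Ift57 are the X-box, GTTNCC and GGNAAC with 0 to 3 bases between them, and its half-site GTTGCC, which was read on both strands (GGCAAC on the other). The X-box lies 60 bases before the RefSeq start and overlaps 1 half-site, and a second half-site lies 87 bases before that start. The gene starts given above for Ift57, Tub and Ift46 come from the count table and lie before the RefSeq starts, inside the windows. For Ift57 that gene start is 49699233, next to the first base of the X-box. The full X-box was present in 3 of the 32 promoters (9.38%; Bbs7, Ift57 and Mks1), and in 0.936% of the 27025 promoters of all genes. The half-site was present in 12 of 32 (37.5%) and in 14.1% of all promoters. Neither occurred in the windows of Tub and Ift46, and among the called genes Ift57, Ift172 and Ift140 held the half-site. The E-box CACGTG, which is its own reverse complement, was present in 2 of 32 (6.25%; Bbs7 and Arl3) and in 8.09% of all promoters. A match describes these letters alone and does not show that a factor binds there.

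In POMC neurons, no cilium gene passed the test for FD against fed, beside 0.375% of all genes tested. At an unadjusted p under 0.05 there were 2 of 36 (5.56%), Arl3 and Tub, beside 12.2% of all genes. DESeq2 called both, beside 2.31% of all genes. The median log2 fold change of the 36 genes was 0.04, with a range of -0.81 (Arl3) to 0.81 (Ift27), and that of all genes tested was -0.02. Tub was at 313, 308, 334, 361 and 364 normalized CPM in the 5 POMC fed libraries and at 657, 447, 541, 447 and 406 in the 5 POMC FD libraries. It was the 1 gene of the 36 (2.78%) whose groups did not overlap, beside 2.35% of all genes, and its log2 fold change was 0.57 ± 0.16 (SE), edgeR adjusted p = 0.108.

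Arl3 (ENSMUSG00000025035, chr19:46531109-46573085, minus strand) was at 61.6, 41.3, 56.8, 57.4 and 85.3 normalized CPM in POMC fed and at 27.5, 25.2, 39.4, 43.6 and 37.2 in POMC FD libraries. Only 1 POMC fed library lay within the POMC FD range. The log2 fold change was -0.81 ± 0.25 (SE), edgeR adjusted p = 0.140. Of the genes called in AGRP neurons, Ift46, Ift52, Ift80, Ift140, Rpgrip1l and Ift57 had log2 fold changes in POMC neurons of 0.27, 0.05, -0.41, -0.11, -0.05 and 0.25, with SEs of 0.21 to 0.39. Among POMC libraries, the sets with 10 µl of spike-in RNA and with a volume set by cell number held FD mice and fed mice alone, respectively, so only the 1 µl set holds both.

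The test of the difference itself, the AGRP change less the POMC change, called 3 of 36 genes (8.33%), beside 6.71% of all genes tested, a share near that of the background. These were Tub and Ift46 in the lower direction (2 of 36, 5.56%, beside 2.63%) and Arl3 in the higher direction (1 of 36, 2.78%, beside 4.08%). Tub fell in AGRP neurons, while all of its POMC FD values were above the POMC fed ones, and the changes differed by -1.46 ± 0.23 (log2, edgeR adjusted p = 0.000108). It remained called when any 1 library was left out.

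Ift46 was at 71.4, 65.0, 39.9, 44.2 and 35.8 normalized CPM in POMC fed and 68.5, 54.8, 54.3, 62.4 and 68.9 in POMC FD libraries, with overlap, and its changes differed by -1.34 ± 0.39 (edgeR adjusted p = 0.0315). In AGRP neurons Arl3 was at 37.9, 73.6, 42.1, 45.7 and 44.4 normalized CPM in fed libraries and 42.8 to 77.7 (median 60.0) in FD libraries, and its changes differed by 1.10 ± 0.34 (edgeR adjusted p = 0.0495). The call of Arl3 was close to the threshold, and it was lost in 7 of 11 other settings and in 16 of 21 fits without 1 library (without AGRP fed replicate 1, 3, 4 or 5 or without AGRP FD replicate 2, 3, 4 or 5 or without POMC fed replicate 1, 3, 4 or 5 or without POMC FD replicate 1, 2, 3 or 5). That of Ift46 was lost without AGRP fed replicate 2 or 4 or without AGRP FD replicate 4 or 5 or without POMC fed replicate 3, 4 or 5 (edgeR adjusted p up to 0.0597). For Ift57, Ift52, Ift80, Ift140 and Rpgrip1l, which passed the test in AGRP neurons, the difference between the neuron types did not pass (edgeR adjusted p = 0.279, 0.150, 0.510, 0.278 and 0.137). Under spike-in scaling none of the 36 genes passed this test, beside 0.327% of all genes. DESeq2 called 5, beside 9.67% of all genes, and tests on log2 TPM 6, beside 7.37% (pseudocount 1) and 6.95% (pseudocount 0.1). The count fell to 1 without any 1 of AGRP fed replicate 4, AGRP FD replicate 4 or 5, or POMC fed replicate 3, 4 or 5. In these fits 5.27 to 6.47% of all genes were called.

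In fed mice, no cilium gene differed between AGRP and POMC neurons at an adjusted p under 0.05 in edgeR's test, beside 7.57% of all genes tested. At an unadjusted p under 0.05 there were 6 of 36 (16.7%), beside 18.9% of all genes. DESeq2 and limma-voom called 0, beside 10.1% and 9.03% of all genes. Tests on log2 TPM called 2, Ift57 and Tulp3, beside 8.19% (pseudocount 1) and 8.25% (pseudocount 0.1). The median log2 fold change was 0.18, with 10 of 36 genes below 0. The groups did not overlap for Bbs9 and Tub (2 of 36, 5.56%, beside 8.93% of all genes), which were 1.25-fold and 1.27-fold higher in AGRP neurons by the fit without passing the test. The largest fitted differences were those of Mks1 and Tulp3. Mks1 was at 7.83, 3.08, 8.16, 18.4 and 5.14 normalized CPM in AGRP fed and 3.04, 4.30, 0.786, 1.75 and 6.68 in POMC fed libraries (log2 fold change 1.36 ± 0.66, edgeR adjusted p = 0.252), with overlap. Tulp3 was at 16.8, 17.6, 12.9, 16.5 and 16.9 normalized CPM in AGRP fed and 4.48, 20.4, 3.38, 5.10 and 7.50 in POMC fed libraries (log2 fold change 0.98 ± 0.46, edgeR adjusted p = 0.234). All POMC fed libraries but replicate 2 lay below the AGRP fed ones, and without that library Tulp3 was the 1 gene called, beside 6.07% of all genes.

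In FD mice, 8 of 36 genes (22.2%) differed between AGRP and POMC neurons, beside 18.6% of all genes tested, so the share was close to that of the background. Arl3, Tulp3, Ift20, Ift57 and Ift172 were higher in AGRP neurons (5 of 36, 13.9%, beside 9.28%), and Tub, Ift46 and Ift52 were lower (3 of 36, 8.33%, beside 9.27%). This comparison shares its AGRP FD and POMC FD libraries with the comparisons of FD against fed. Values of 5 genes did not overlap between the groups (13.9%, beside 11.4% of all genes): Tub, Tulp3, Ift20, Ift46 and Ift57. The count of 8 fell to 5 without AGRP FD replicate 3 or POMC FD replicate 2, beside 16.8% and 16.7% of all genes. It also fell to 5 with a block of age cohort or of spike-in set, beside 15.1% and 16.95%. Under spike-in scaling it was 0, beside 4.15% of all genes.

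Tub was 2.17-fold lower in AGRP FD than in POMC FD neurons (log2 fold change -1.12 ± 0.16 (SE), edgeR adjusted p = 2.95e-06), Ift46 2.29-fold lower (log2 fold change -1.20 ± 0.27 (SE), edgeR adjusted p = 0.00145) and Ift52 1.72-fold lower (log2 fold change -0.78 ± 0.27 (SE), edgeR adjusted p = 0.0371). Under spike-in scaling the log2 values of Tub and Ift52 turned to 0.30 and 0.29, where the median of all genes was 1.17. The call of Ift52 was lost without AGRP FD replicate 2, 3 or 6 or without POMC FD replicate 1, 2 or 3 (edgeR adjusted p up to 0.134). It was also lost with the age cohort, the spike-in set or the number of sorted cells in the fit (edgeR adjusted p = 0.125, 0.225 and 0.0570), with the compared groups alone, without the count filter and with limma-voom. Ift57 was 2.31-fold higher in AGRP FD neurons (log2 fold change 1.21 ± 0.24 (SE), edgeR adjusted p = 0.000432), with 52.9, 24.1, 44.8, 46.2 and 28.6 normalized CPM in POMC FD libraries, all below the lowest AGRP FD library.

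Ift20 (ENSMUSG00000001105, chr11:78536361-78541737, plus strand) was at 86.7 to 125 (median 111) normalized CPM in AGRP FD and 64.5, 44.0, 49.3, 55.2 and 74.3 in POMC FD libraries, 1.92-fold higher in AGRP neurons (log2 fold change 0.94 ± 0.20 (SE), edgeR adjusted p = 0.000846). Tulp3 (ENSMUSG00000001521, chr6:128321140-128355851, minus strand), whose protein brings receptors into the cilium with IFT-A, was at 8.94 to 22.5 (median 16.3) normalized CPM in AGRP FD and 3.57, 8.40, 6.81, 5.89 and 4.13 in POMC FD libraries, 2.72-fold higher (log2 fold change 1.44 ± 0.45 (SE), edgeR adjusted p = 0.0229). For both genes every AGRP FD library was above every POMC FD library. The call of Tulp3 was lost without AGRP FD replicate 3 or without POMC FD replicate 1 or 5 (edgeR adjusted p up to 0.0561), and with the age cohort or the spike-in set in the fit (edgeR adjusted p = 0.0733 and 0.0947). Ift140, a partner of both proteins of the tubby family, had a log2 fold change of -0.87 ± 0.38 and did not pass the test.

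Ift172 (ENSMUSG00000038564, chr5:31253280-31291114, minus strand), the largest IFT-B protein, was at 37.3 to 98.9 (median 51.1) normalized CPM in AGRP FD and 28.2, 26.9, 48.6, 39.4 and 17.6 in POMC FD libraries, with overlap (log2 fold change 0.90 ± 0.28 (SE), edgeR adjusted p = 0.0219). Within the mice of P51-56 alone (3 AGRP FD, 5 POMC FD) its difference was 0.38 on the log2 scale, against 0.86 over all mice, and with the age cohort or the spike-in set in the fit it was not called (edgeR adjusted p = 0.298 and 0.106), nor with limma-voom, the compared groups alone or log2 TPM. The call was also lost without AGRP FD replicate 2 or 3 or without POMC FD replicate 2 or 5 (edgeR adjusted p up to 0.0783). Arl3 was 1.73-fold higher in AGRP FD neurons (log2 fold change 0.79 ± 0.24 (SE), edgeR adjusted p = 0.0192), with overlap in 1 pair of libraries, and this call was lost without POMC FD replicate 1 or 2 (edgeR adjusted p up to 0.0615). Ift27 had the largest fitted difference, -1.83 ± 0.92, and did not pass (edgeR adjusted p = 0.180). It was at 0 to 9.18 (median 2.51) normalized CPM in AGRP FD and 30.3, 7.12, 10.8, 2.85 and 0.870 in POMC FD libraries. Of the 17 tested markers of other cells, Vim was higher and Lhx2 lower in AGRP FD than in POMC FD neurons, both listed for tanycytes, and their part in these differences was not tested.

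**Figure D4:**
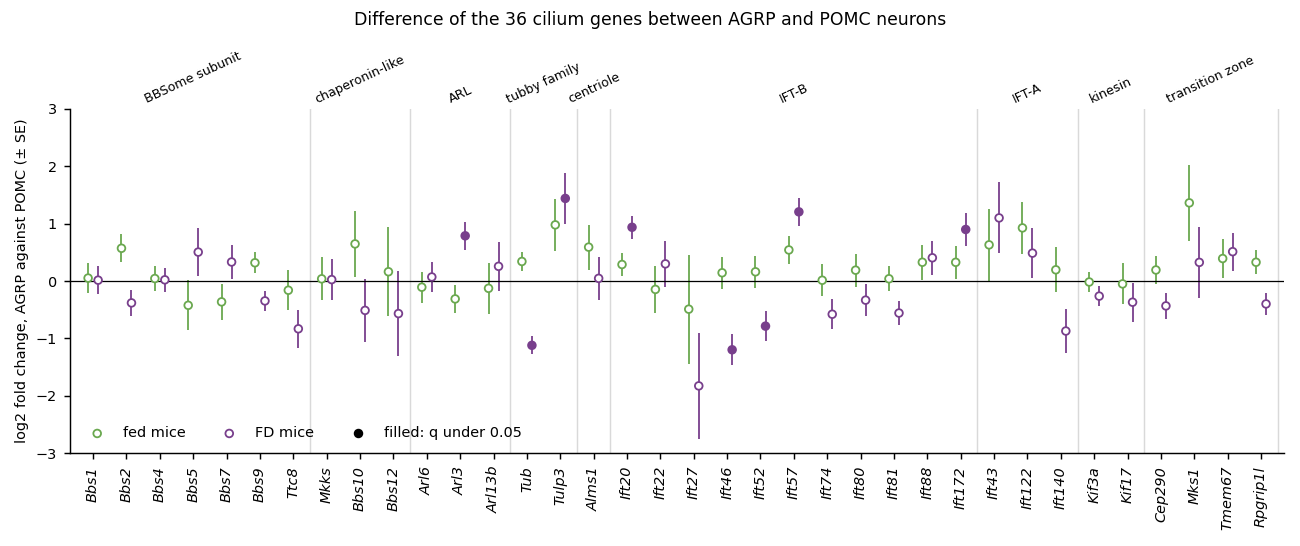
Log2 fold change of AGRP against POMC neurons (points, with the SE as bars) for the 36 cilium genes in fed and in FD mice, ordered by complex, with genes at an edgeR adjusted p under 0.05 filled. No gene is filled in fed mice, and in FD mice 5 genes are filled above 0 and 3 below 0, of which Tub and Ift52 turned to 0.30 and 0.29 under spike-in scaling.

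The study's methods also ask of a differentially expressed gene that its log2 fold change exceed 1 in size and that some group average more than 20 CPM. These criteria were applied here to the edgeR fit, not to the study's limma-voom fit, so the genes that meet them are not the study's own list. In AGRP FD against fed, 2 of 36 genes met them, Ift46 and Ift140, beside 4.46% of all genes, and in POMC FD against fed none did, beside 0.266%. Between AGRP and POMC neurons none met them in fed mice, beside 4.01%, and Tub, Ift46 and Ift57 did in FD mice, beside 8.16%. For the difference of the changes, Tub, Ift46 and Arl3 met them, beside 4.58%.

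A further 70 cilium genes were listed by role, and 66 were tested. In AGRP FD against fed, 3 of the 66 passed the test (4.55%), a lower share than the 10.3% of all genes. Of these, 2 fell (3.03%, beside 4.43%) and 1 rose (1.52%, beside 5.87%). Cc2d2a, a transition zone gene, went from 62.0 ± 12.8 (SD, n = 5) to 30.1 ± 10.4 (SD, n = 6) normalized CPM (log2 fold change -1.04 ± 0.25 SE, edgeR adjusted p = 0.00612). Ptch1, the Hedgehog receptor that leaves the cilium on signalling, went from 70.0 ± 15.0 to 29.7 ± 6.71 (-1.24 ± 0.27, edgeR adjusted p = 0.00260). Ttbk2, a kinase that starts cilium growth, went from 336 ± 28.1 to 490.3 ± 46.7 (0.54 ± 0.15, edgeR adjusted p = 0.0143). The median log2 fold change of the 66 was -0.34. None of the other IFT genes (9 tested), other motors (6) or other BBS genes (6) passed the test in AGRP neurons, and none of the 66 did in POMC neurons.

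The change differed between the neuron types for 3 of the 66 (4.55%), beside 6.71% of all genes. Cc2d2a was at 32.6 ± 7.52 normalized CPM in POMC fed and 57.1 ± 12.5 in POMC FD neurons, and the difference of its changes was -1.85 ± 0.36 (edgeR adjusted p = 0.00155). The RFX factor genes Rfx5 and Rfx7 had differences of -1.58 ± 0.46 and -0.99 ± 0.24 (edgeR adjusted p = 0.0327 and 0.0114). Rfx3, whose protein drives cilium genes, did not pass the test for a change in either neuron type and was higher in AGRP than in POMC neurons of fed mice, at 171 ± 41.8 against 96.9 ± 16.8 normalized CPM (edgeR adjusted p = 0.00254). In fed mice 2 of the 66 differed between the neuron types (3.03%, beside 7.57% of all genes), and in FD mice 9 (13.6%, beside 18.6%), in both a share below that of all genes. Of the 9, 3 were higher in AGRP neurons (4.55%, beside 9.28% of all genes) and 6 lower (9.09%, beside 9.27%). Cep89, a basal body gene with the lowest adjusted p of the 9, was higher. It was at 33.0 ± 14.8 normalized CPM in AGRP FD and 10.4 ± 1.02 in POMC FD neurons (log2 fold change 1.66 ± 0.42, edgeR adjusted p = 0.00460). Among the lower genes, Mchr1, the melanin-concentrating hormone receptor that resides in neuronal cilia, was at 5.74 ± 9.63 normalized CPM in AGRP FD and 34.2 ± 18.3 in POMC FD neurons (log2 fold change -2.59 ± 0.70, edgeR adjusted p = 0.00873). Inpp5e, a phosphatase that sets the lipids of the ciliary membrane, was at 42.7 ± 14.9 and 80.1 ± 27.6 (-0.91 ± 0.27, edgeR adjusted p = 0.0178). The RFX factor gene Rfx2 was also lower (-3.33 ± 0.94, edgeR adjusted p = 0.0109). Cc2d2a was lower in AGRP neurons of FD mice (-0.92 ± 0.25, edgeR adjusted p = 0.00843) but higher in AGRP neurons of fed mice (0.93 ± 0.26, edgeR adjusted p = 0.0254).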

How the data were processed

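Data were RNA-Seq libraries of hand-sorted AGRP and POMC neurons. The authors amplified the RNA (NuGEN Ovation, no molecular identifiers), trimmed reads with cutadapt 1.7.1, removed abundant sequences with Bowtie2 2.1.0, mapped to mm10 with STAR 2.4.0i and made the deposited counts over 35266 Gencode genes with HTSeq 0.6.1p1, without strand. The authors derived the deposited TPM from these counts and exon lengths. The count table also holds 92 spike-in and 5 summary entries, kept out of library sizes. Of the reads counted, 24.2 to 52.1% were assigned to no gene, which can include reads inside introns. Reads are not independent molecules, so the floor of 3 counts (0.0797 to 0.305 CPM) covers counting error only.

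Groups came from the sample titles. Genes with CPM over 1 in at least 3 libraries were kept (16513), scaled by TMM and fitted in 1 edgeR quasi-likelihood model with 4 groups over all 21 libraries, with two-sided tests and Benjamini-Hochberg adjustment over all genes (adjusted p under 0.05 called). Fold changes are from this fit. TPM served for levels between genes, and normalized CPM for libraries. The study's own test, limma-voom, was an alternative, beside DESeq2, RLE and spike-in scaling, no filter, the compared groups alone, blocks of replicate, age cohort and spike-in set, the number of cells, log2 TPM with pseudocounts of 1 and 0.1, the study's criteria, and each library left out. Labels name 1 mouse per library. Members and lists were chosen with earlier results of these data known. Named in full are the genes called in any comparison and the 2 with the largest fold change in each, 13 in all. Gene positions are those of the count table with 1 added to the start, since 23667 annotated starts lay 1 base above it. Overlaps are from GENCODE M21 and promoters from RefSeq (GRCm38.p6), with no entry used for 4 genes. R 4.3.3, edgeR 4.0.16, limma 3.58.1, DESeq2 1.42.0, Python 3.11.15, numpy 2.4.6, pandas 2.3.3 and matplotlib 3.10.9 were used, and the fit was tested on simulated data.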

Additional observations from a re-analysis of the deposited data

Results flagged for a closer look

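Of 52 sets of values of the named genes within a group, 5 held 1 library that stood apart from the others, where chance gives about 1 in 20. In AGRP fed neurons Arl3 was at 73.6 normalized CPM in replicate 2, next to 45.7 in the nearest library, and Tulp3 was at 12.9 in replicate 3, next to 16.5. In POMC fed neurons Tulp3 was at 20.4 normalized CPM in replicate 2, next to 7.50, and Ift172 at 65.3 in replicate 5, next to 46.4. In AGRP FD neurons Ift27 was at 9.18 normalized CPM in replicate 4, next to 2.84. Without POMC fed replicate 2, 1 cilium gene (Tulp3) was called between AGRP and POMC neurons of fed mice, where none was with it. The share of all genes called without it was 6.07%.

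The changes with food deprivation differed between AGRP and POMC neurons, by the interaction test, for Tub (AGRP change less POMC change -1.46 on the log2 scale), Ift46 (-1.34) and Arl3 (1.10). These were 3 of 36 genes (8.33%), beside 6.71% of all genes. The call of Arl3 was lost in 7 of 11 other settings and in 16 of 21 fits without 1 library, and that of Ift46 in 7 of these 21.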

How the results depend on the processing

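Counts of called cilium genes were 7 (AGRP FD against fed), 0 (POMC FD against fed), 0 and 8 (AGRP against POMC in fed and in FD mice) and 3 (difference of the changes). Scaling to spike-in RNA gave 0 in all 5, beside 0.00606 to 4.15% of all genes. It turned Ift57 in AGRP neurons to -0.28 and, between FD groups, Tub and Ift52 to 0.30 and 0.29. The cause was not tested. Tests on log2 TPM, with either pseudocount, gave 11 for AGRP FD against fed, 2 between fed groups and 6 for the difference of the changes. The shares of all genes were 11.7 to 11.8%, 8.19 to 8.25% and 6.95 to 7.37%. DESeq2 gave 2 in POMC neurons and 5 for the difference, beside 2.31% and 9.67% of all genes. Between FD groups the blocks of age cohort and of spike-in set gave 5 each (without Tulp3, Ift52 and Ift172), beside 15.1% and 16.95% of all genes. In AGRP FD against fed the block of spike-in set gave 7, with Cep290 in place of Ift140, beside 11.27%. The study's criteria, applied to the edgeR fit, gave 2 in AGRP neurons and 3 between FD groups, beside 4.46% and 8.16% of all genes.

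Same-numbered libraries are different mice, and their deviations correlated at -0.122 to 0.051. The replicate block gave 4 in AGRP FD against fed (without Ift52, Ift80 and Ift140), 7 between FD groups (without Ift52) and 2 for the difference (without Arl3). The shares of all genes were 9.01%, 17.1% and 5.61%.

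Leaving out 1 library gave 4 to 8 in AGRP FD against fed (4 without AGRP fed replicate 2 or 3), 0 in POMC neurons, 0 to 1 between fed groups, 5 to 9 between FD groups (5 without AGRP FD replicate 3 or POMC FD replicate 2) and 1 to 3 for the difference (1 without AGRP fed replicate 4, AGRP FD replicate 4 or 5, or POMC fed replicate 3, 4 or 5). In the same order, the shares of all genes called in these fits were 7.55 to 11.6%, 0.242 to 0.672%, 5.90 to 8.05%, 16.5 to 19.1% and 5.26 to 7.93%. Tub, Ift46, Ift57 and Rpgrip1l stayed called in AGRP neurons in all 21 of these fits. Age and spike-in set coincide in part of the AGRP libraries, and none of the POMC mice was of P46-47.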
